A study of Mus musculus with 35 samples.

Results

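Xenobiotic metabolism enzymes of the colon are described here across 35 mice, as 5 gene families: cytochromes P450 of families 1 to 4 (Cyp), carboxylesterases 1 and 2 (Ces), cytosolic and kappa glutathione transferases (Gst), UDP-glucuronosyltransferases 1 and 2 (Ugt) and sulfotransferases of family 1 (Sult). Genes were chosen by symbol and by the measured log2 signal: a probe set had to carry 1 gene symbol and average 7 or more over all 35 arrays. Of 19908 genes measured, 114 belonged to these families at any level and 43 passed that level. These were 17 of 70 Cyp, 6 of 12 Ces, 15 of 18 Gst, 1 of 8 Ugt and 4 of 6 Sult genes. All 8 Ugt genes were of family 2, and no Ugt1 gene had a probe set with 1 symbol. The genes just inside the level were Gstp3 (7.001), Cyp2c68 (7.008) and Ces1b (7.037), and those just outside were Cyp2c37 (6.944), Cyp4f18 (6.891) and Cyp4b1 (6.823). The mean was at least 7 in every group for 33 of the 43, and 10 fell below it in at least 1 group: Cyp2c55, Cyp2c68, Cyp2e1, Cyp2f2, Cyp3a13, Ces1b, Ces1d, Ces1f, Ces2g and Gstp3. Among the genes left out by level, Cyp1a1 averaged 5.687, Cyp1b1 5.829, Cyp3a11 5.793 and Ces1g 6.308. A further 15 probe sets held a family gene together with other symbols and were not used.

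Each C57BL/6N mouse gave 1 sample of colon RNA for 1 Affymetrix Mouse Gene 1.0 ST array, and 7 groups held 5 mice apiece. Of the groups with their own flora, DSS TG mice carried a Reg3a transgene and received 3% dextran sulfate sodium (DSS) in drinking water for 5 days, DSS WT mice were wild-type and received the same, and untreated TG and untreated WT mice received water. DSS damages the colon epithelium and causes colitis. All 3 axenic (germ-free) groups received DSS: TG flora and WT flora mice after a transplant of flora from transgenic or wild-type donors 3 weeks earlier, and controls, for which the label puts DSS first and the transfer after it. The sources used here do not say whether those controls carried any flora when sampled, nor do they give the promoter and species of the transgene, the sex, the cage or the number of transgenic lines. A treatment label also puts the conventional mice after a flora transfer, and the titles were followed instead. Colons were collected at day 12. Because whole colon was measured, fewer cells of a type and less RNA per cell cannot be told apart.

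These enzymes work in sequence. Cytochromes P450 oxidise lipophilic chemicals and carboxylesterases split their ester bonds, while glutathione transferases, glucuronosyltransferases and sulfotransferases attach a polar group so that the product can leave the cell. In the gut they meet dietary chemicals, drugs, bile acids and microbial products first in the epithelium, and many of them also act on the body's own lipids, steroids and oxidised fatty acids.

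The promoters of Gsta3, Gstm1 and Gstm3 are shown, 3 of the 4 glutathione transferases that differed between genotypes in their DSS response (values below). Each window, from RefSeq on GRCm38.p6, runs from 250 bases before to 50 bases after a transcript start, 5′ to 3′ on the strand of the gene. Capitals mark the motif matches that a search of both strands found: TGACNNNGC, the antioxidant response element core, in Gsta3, and GCGTG, the aryl hydrocarbon receptor element core, and AGGTCA, the core letters bound by nuclear receptors, in Gstm1.
Gsta3 (chr1:21240335-21240634, plus strand): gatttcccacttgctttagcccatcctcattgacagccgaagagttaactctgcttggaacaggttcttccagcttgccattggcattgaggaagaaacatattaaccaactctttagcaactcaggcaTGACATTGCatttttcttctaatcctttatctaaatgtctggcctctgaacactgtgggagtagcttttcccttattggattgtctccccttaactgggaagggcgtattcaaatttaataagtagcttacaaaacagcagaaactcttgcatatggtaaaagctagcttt
Gstm1 (chr3:108017769-108018068, minus strand): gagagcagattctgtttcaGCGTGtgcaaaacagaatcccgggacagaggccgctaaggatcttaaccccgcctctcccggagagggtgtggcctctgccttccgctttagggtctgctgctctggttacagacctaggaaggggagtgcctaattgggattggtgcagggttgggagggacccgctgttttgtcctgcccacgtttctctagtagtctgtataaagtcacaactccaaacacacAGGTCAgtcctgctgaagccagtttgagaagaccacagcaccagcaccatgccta
Gstm3 (chr3:107969125-107969424, minus strand): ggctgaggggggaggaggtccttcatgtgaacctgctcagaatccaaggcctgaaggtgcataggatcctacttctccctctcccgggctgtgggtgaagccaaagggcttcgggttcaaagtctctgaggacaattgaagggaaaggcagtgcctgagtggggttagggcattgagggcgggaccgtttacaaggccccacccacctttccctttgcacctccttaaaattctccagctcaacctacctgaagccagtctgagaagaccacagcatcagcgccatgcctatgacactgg
The Gsta3 match began at base -121 from the start, and the Gstm3 window held no match to these motifs or to TTATGTAA, the D-box of clock-controlled factors. The windows of Gstt3 held no match either and are not shown, nor is a further Gstm1 window, which held GCGTG. Windows were found for 36 of the 43 genes (46 windows). TGACNNNGC lay in 13.0% of these windows against 12.4% of all 32851 windows, GCGTG in 21.7% against 32.4%, AGGTCA in 13.0% against 16.3% and TTATGTAA in 4.3% against 0.9%, the last in Ces1b alone. A match describes letters in the window and nothing about binding.

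Array medians ranged from 6.65 to 6.95 (log2 signal). The spread of log2 values within an array averaged 1.83 in axenic TG flora, 1.96 in axenic WT flora and 1.73 in axenic control mice, and 1.90 in DSS TG, 1.87 in DSS WT, 1.83 in untreated TG and 1.87 in untreated WT mice. Among conventional mice Xist read over 10 in 2 per group, and among axenic mice in 0. Pan-epithelial markers (10 of 10 measured) ranged from 11.05 to 12.07 per mouse as a list mean, so epithelium was present in every sample. Pancreas markers varied widely, from 6.20 to 11.71, and the part of pancreas RNA in the results was not tested.

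**Figure D1:**
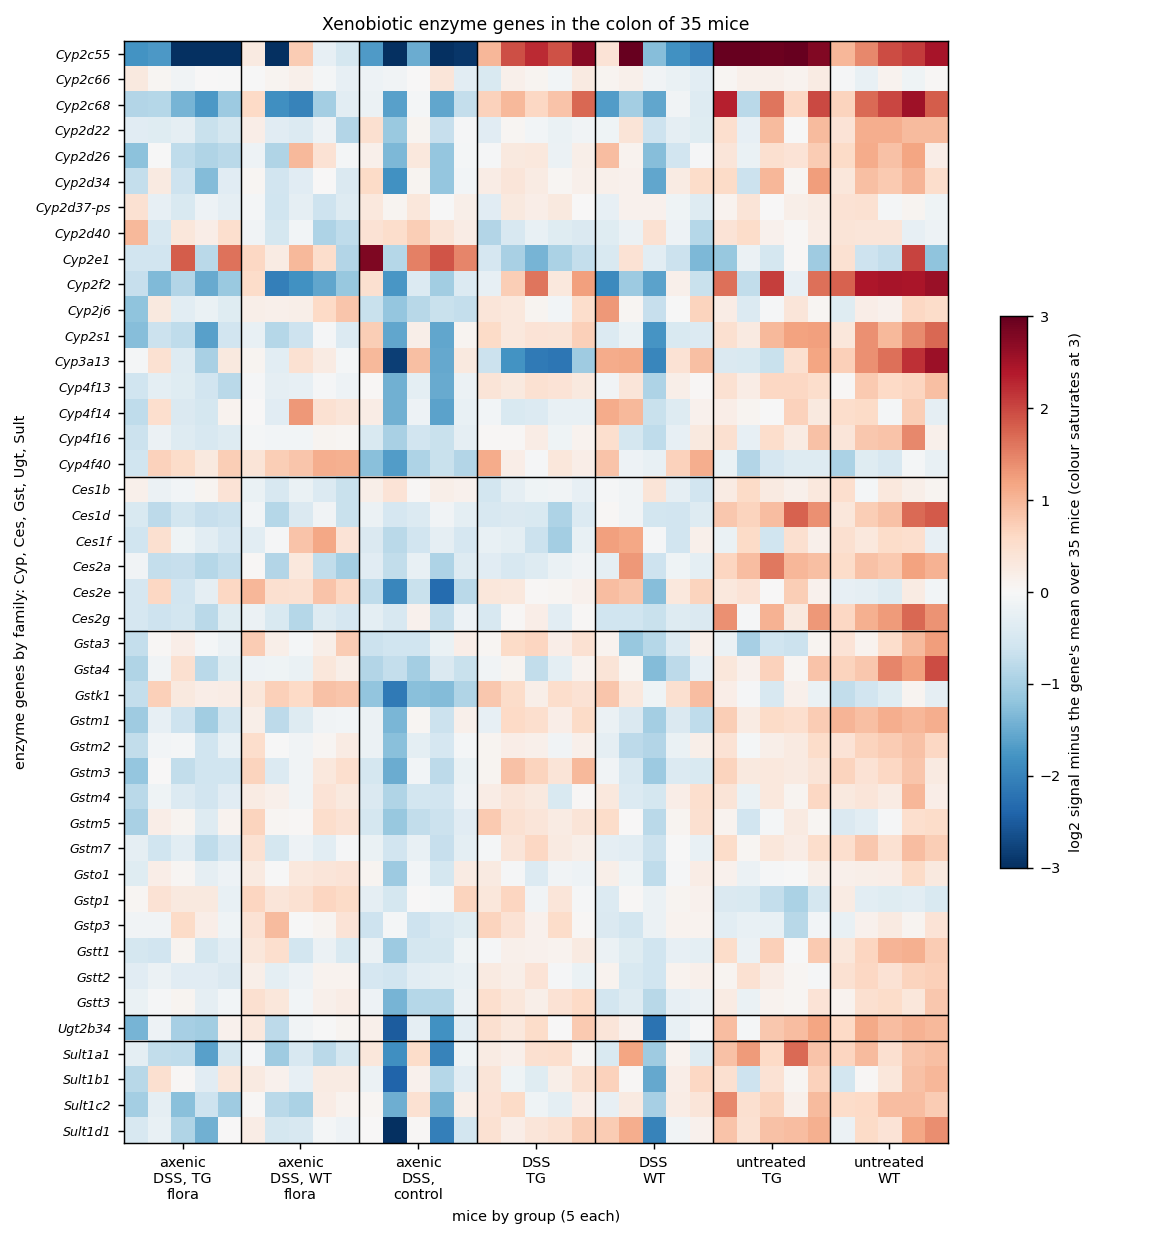
Log2 signal of the 43 enzyme genes (rows, by family) in each of 35 mice (columns, 5 per group), as the difference from the gene's own mean over all mice, with the colour saturated at 3. Gstm1 is above its mean in all 5 untreated WT mice and below it in all 5 DSS WT mice, Cyp2f2 and Ces1d likewise except for 1 DSS WT mouse each, and Gstk1, Cyp4f40 and Ces2e are below their means in axenic controls.

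Many of these enzymes were lower in wild-type mice given DSS. At an adjusted p under 0.05 (limma, 5 against 5 mice, Benjamini-Hochberg over all genes), 14 of the 43 fell and 1 rose, so 34.9% were called, against 5.13% of all genes (2.13% lower and 3% higher) and 8.58% of the 9313 genes with a mean of 7 or more. Of the 33 genes at 7 or more in every group, 10 fell and 1 rose. At any level, 19 of 114 family genes fell and 1 rose. The median log2 change was -0.83 over the 43, -0.03 over all genes and -0.001 over genes with a mean of 7 or more. All 5 DSS WT mice were below all 5 untreated WT mice for 16 of the 43, against 2.96% of all genes. That held for 12 of the 33 genes at 7 or more in every group. By family, 8 Gst, 4 Cyp and 2 Ces genes fell, and 0 of 4 Sult genes and 0 of 1 Ugt gene were called (2 and 1 at an unadjusted p under 0.05, as were 16.6% of all genes). Among the falls, Cyp2f2, Cyp2c68, Ces1d and Ces2g averaged under 7 in some groups. Their place among the 43 thus rests on the groups where they are high.

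Markers of tissue makeup and position moved in the same comparison. Posterior Hox genes, which mark the distal end of the colon, had list means of 6.12 to 6.44 in DSS WT mice and 6.65 to 7.53 in untreated WT mice, without overlap, and 5 of 9 were lower. Absorptive colonocyte markers had list means of 10.06 to 10.98 in DSS WT and 11.22 to 11.36 in untreated WT mice, with 4 of 11 lower and 1 higher, and neutrophil markers 5.97 to 9.06 and 5.33 to 5.68, with 4 of 8 higher. Pan-epithelial markers had 11.14 to 12.02 and 11.67 to 11.92, with 0 of 10 called. Goblet (4 of 7), fibroblast (4 of 8) and macrophage markers (3 of 8) were also higher in DSS WT mice, and their part in the enzyme values was not tested. With posterior Hox level added as a covariate, 0 of the 43 enzymes were called, where the median size of the 15 changes was 0.61 instead of 1.10, all 15 kept their direction and the median SE over the 43 was 0.499 instead of 0.275. How many of all genes were called in that fit is not given here, so the 0 cannot be read as particular to the enzymes. Posterior Hox level and DSS cannot be told apart in these wild-type mice.

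Among the oxidising enzymes, Cyp2f2, best known for activating naphthalene in mouse lung, fell the furthest. It read 6.02, 6.32, 6.84, 7.25 and 8.08 in DSS WT mice, against 9.70, 10.35, 10.38, 10.40 and 10.51 in untreated WT mice. Every DSS WT mouse lay below every untreated WT mouse, a log2 change of -3.36 (SE 0.34, adjusted p = 0.000482). Cyp2c68, a member of the CYP2C subfamily that makes epoxides of fatty acids, read 5.33 to 6.91 in DSS WT and 7.67 to 9.54 in untreated WT mice. That was a log2 change of -2.69 (SE 0.38, adjusted p = 0.00342), again without overlap. Cyp2s1, which oxidises retinoids and prostaglandin-derived lipids, fell by 1.82 (SE 0.32, adjusted p = 0.0103), and Cyp2d22, a mouse relative of human CYP2D6, fell by 1.10 (SE 0.19, adjusted p = 0.0096). Cyp2c55, which hydroxylates arachidonic acid, was the most scattered. It read 7.15, 7.39, 7.94, 9.63 and 12.27 in DSS WT mice, against 10.21 to 11.69 in untreated WT mice, and its log2 change of -2.13 was not called (SE 0.84, adjusted p = 0.212). DSS WT56 held the highest value, above all 5 untreated WT mice.

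Carboxylesterases split between those that fell and those that did not pass. Ces2g, an intestinal esterase, read 6.43 to 6.72 in DSS WT and 7.72 to 8.83 in untreated WT mice, a log2 change of -1.75 (SE 0.18, adjusted p = 0.0005). Ces1d, a hydrolase of triacylglycerols as well as of drug esters, read 6.97, 6.98, 7.14, 7.43 and 7.56 in DSS WT mice, against 7.88, 8.27, 8.41, 9.24 and 9.38 in untreated WT mice. The groups did not overlap (log2 change -1.42, SE 0.27, adjusted p = 0.0153). Ces2a, another intestinal carboxylesterase, had a log2 change of -0.90 (SE 0.31, adjusted p = 0.142), and DSS WT56 stood alone at 9.28 where the other 4 mice read 7.36 to 7.84.

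Glutathione transferases of the mu, theta and alpha classes made up most of the falls. Gstm1, the most studied mu-class enzyme, read 9.61, 9.87, 10.20, 10.21 and 10.46 in DSS WT mice, against 11.53, 11.64, 11.65, 11.72 and 11.73 in untreated WT mice. The groups were far apart (log2 change -1.59, SE 0.15, adjusted p = 0.000377). Its relatives Gstm2, Gstm3 and Gstm7 fell by 1.07, 1.08 and 0.98, whereas Gstm4 (-0.40, adjusted p = 0.453) and Gstm5 (0.01, adjusted p = 0.997) were not called. The mu genes printed above lie together on chromosome 3 and resemble each other, so probes of one may also bind transcripts of another. Theta-class genes Gstt1, Gstt2 and Gstt3, which act on small halogenated compounds, fell by 1.10, 0.71 and 0.90 (adjusted p = 0.0028, 0.0305 and 0.0102). Gsta4, which clears the lipid peroxidation product 4-hydroxynonenal, fell by 1.60 (SE 0.33, adjusted p = 0.0192), and without untreated WT7 it was no longer called. Gstk1, the kappa-class enzyme of mitochondria and peroxisomes, rose by 0.86 (SE 0.21, adjusted p = 0.0409), with overlapping groups, and the call held in 3 of 10 fits that left out 1 mouse.

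The only Ugt gene kept and the Sult genes gave no calls in wild-type mice, and Ugt1 genes were not among those measured here. Ugt2b34, a glucuronosyltransferase, read 8.49, 10.48, 10.65, 10.83 and 11.06 in DSS WT and 11.29 to 11.84 in untreated WT mice, without overlap but with a log2 change of -1.33 (SE 0.40, adjusted p = 0.0951). DSS WT55 was the lowest DSS WT mouse, and it also had the lowest pan-epithelial (11.14) and the highest neutrophil (9.06) level of its group. Sult1c2 had a log2 change of -0.83 (SE 0.24, adjusted p = 0.0732) and Sult1a1, a phenol sulfotransferase, -0.90 (SE 0.34, adjusted p = 0.184). Leaving out 1 mouse at a time gave 12 to 19 of the 43 called.

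**Figure D2:**
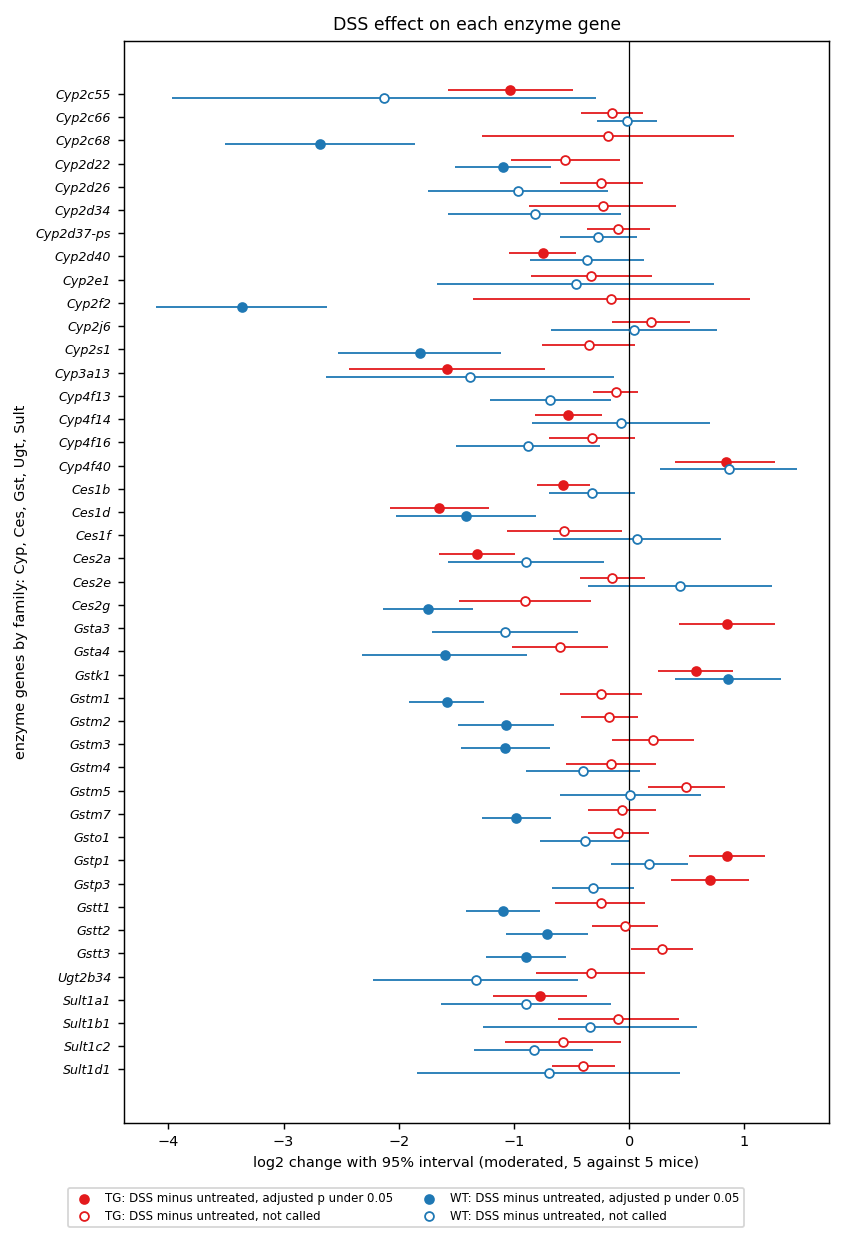
Log2 change under DSS with its 95% interval (DSS minus untreated, 5 against 5 mice, limma) for each enzyme gene, transgenic above wild-type, with filled points for an adjusted p under 0.05. In wild-type mice 14 genes are called lower and 1 higher, and in transgenic mice 8 lower and 5 higher.

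In Reg3a-transgenic mice DSS gave calls in both directions. Of the 43 genes 8 fell and 5 rose, 30.2% in all against 4.55% of all genes (1.08% lower and 3.46% higher) and 7.23% of genes with a mean of 7 or more. The median log2 change was -0.23 over the 43, -0.02 over all genes and 0.14 over genes with a mean of 7 or more. Of the 33 genes at 7 or more in every group 4 fell and 4 rose, and at any level 11 of 114 fell and 5 rose. The falls were 4 Cyp, 3 Ces and 1 Sult gene, and the rises were 4 Gst and 1 Cyp gene. Among them Cyp2c55, Cyp3a13, Ces1b, Ces1d and Gstp3 averaged under 7 in some groups. Posterior Hox list means were 6.53 to 6.68 in DSS TG and 6.34 to 7.41 in untreated TG mice, with 0 of 9 called. Pan-epithelial means were 11.91 to 12.07 and 11.70 to 11.89, without overlap and with 1 of 10 called (Elf3), and with that level as a covariate 0 of the 43 were called (13 of 13 kept their direction, median SE 0.292 instead of 0.164). Goblet (2 of 7), fibroblast (4 of 8) and macrophage markers (3 of 8, with 1 lower) were higher in DSS TG mice, with their part not tested. The count was 4 without DSS TG48, 5 without DSS TG46 or untreated TG26, 6 without untreated TG29, 7 without DSS TG44 or untreated TG28, and 8 without untreated TG31 or TG631. Shares of all genes called are not given here for the covariate fit or the fits without 1 mouse.

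Among the esterases Ces1b, Ces1d and Ces2a fell in the transgenic colon. Ces1d read 6.61, 7.05, 7.07, 7.10 and 7.12 in DSS TG mice, against 8.21, 8.34, 8.46, 8.91 and 9.31 in untreated TG mice. All 5 DSS TG mice lay well below the untreated ones (log2 change -1.65, SE 0.20, adjusted p = 0.00507). Ces2a read 7.49 to 7.86 in DSS TG and 8.63 to 9.55 in untreated TG mice (log2 change -1.32, SE 0.15, adjusted p = 0.00507). Ces1b fell by 0.57 (adjusted p = 0.0172), and its call was lost without untreated TG26 or DSS TG48. The DSS effect on Ces1d was -0.23 apart, transgenic minus wild-type (95% interval -0.98 to 0.52, adjusted p = 0.933).

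Of the P450 genes, Cyp2c55 read 10.21, 11.13, 11.15, 11.45 and 11.93 in DSS TG mice, against 11.99, 12.16, 12.23, 12.30 and 12.36 in untreated TG mice. The untreated TG values lay within a narrow band above every DSS TG mouse (log2 change -1.03, SE 0.25, adjusted p = 0.0403). Cyp3a13, of the subfamily that clears many drugs, read 6.25, 6.29, 6.62, 7.34 and 7.76 in DSS TG mice, against 7.75, 7.95, 7.97, 8.90 and 9.59 in untreated TG mice. The groups touched at 1 mouse each (log2 change -1.58, SE 0.39, adjusted p = 0.0449). The Cyp2c55 call held in 3 of 10 fits that left out 1 mouse, and the Cyp3a13 call in 1 of 10, the one without DSS TG49. Cyp2d40 fell by 0.75 (adjusted p = 0.016) and Cyp4f14, a leukotriene B4 hydroxylase, by 0.53 (adjusted p = 0.0454), while Cyp4f40 rose by 0.84 (adjusted p = 0.0389). Cyp2f2 had a log2 change of -0.16 with a wide interval (-1.36 to 1.05, adjusted p = 0.863). Its untreated TG values were 7.19, 7.68, 9.57, 9.57 and 10, and the 2 lowest came from TG31 and TG28, the mice with the lowest posterior Hox means of that group (6.34 and 6.39). This pairing was seen after the values were known and was not tested.

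The rises in transgenic mice were mostly glutathione transferases. Gstp1, the pi-class enzyme found in many epithelia, read 11, 11.08, 11.45, 11.46 and 11.74 in DSS TG mice, against 10.16, 10.39, 10.59, 10.66 and 10.68 in untreated TG mice. The groups did not overlap (log2 change 0.85, SE 0.15, adjusted p = 0.0168). Gstp3, of the same class, rose by 0.70 (adjusted p = 0.0334) and Gstk1 by 0.58 (adjusted p = 0.0494). Gsta3, an alpha-class enzyme known in mice for detoxifying the aflatoxin epoxide, read 7.80, 7.95, 8.21, 8.32 and 8.38 in DSS TG mice, against 6.74, 7.09, 7.16, 7.56 and 7.83 in untreated TG mice. Only the lowest DSS TG mouse lay below the highest untreated TG mouse (log2 change 0.85, SE 0.19, adjusted p = 0.0342), and the call held in 4 of 10 fits that left out 1 mouse. Sult1a1 fell by 0.78 (SE 0.19, adjusted p = 0.0403), a call that held in 3 of those 10 fits, and 0 other sulfotransferases were called.

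**Figure D3:**
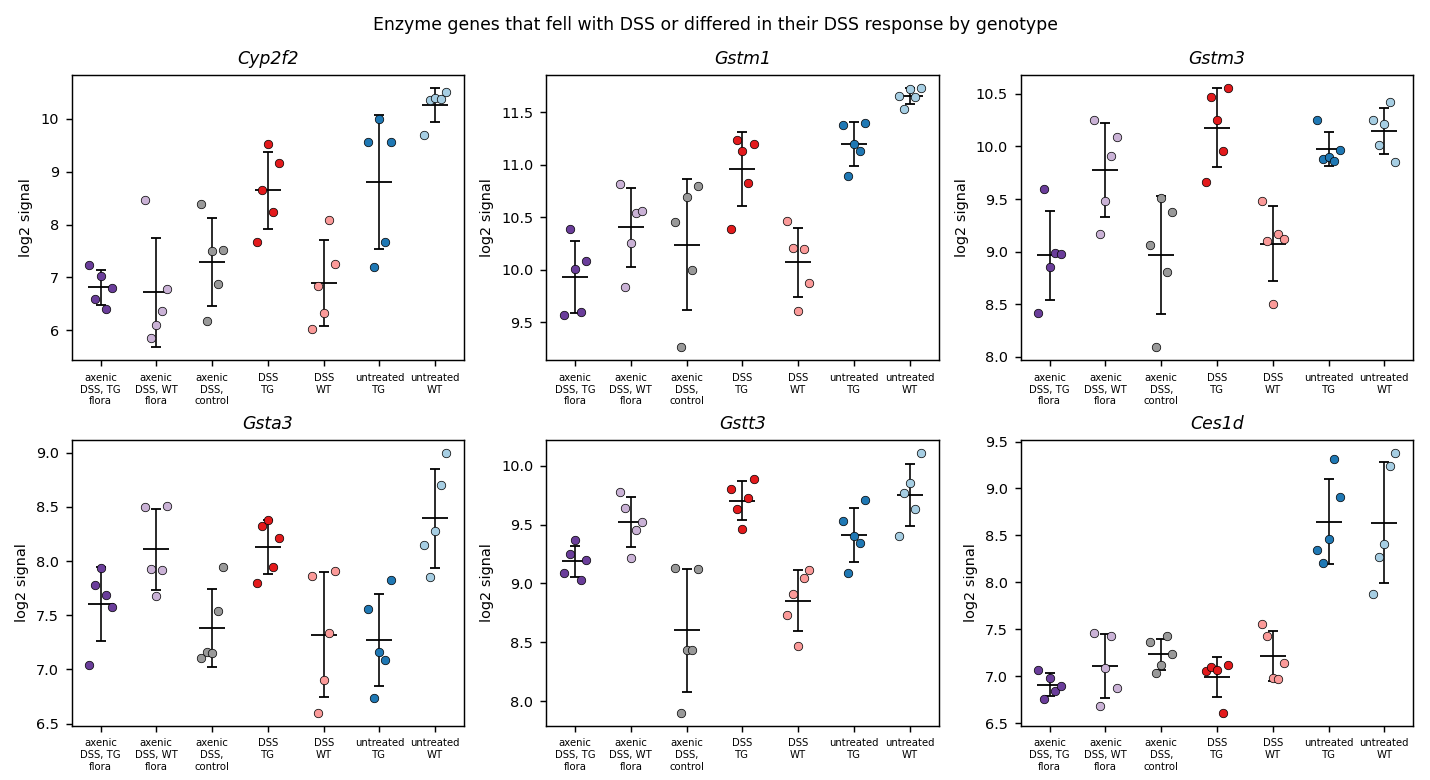
Log2 signal of 6 enzyme genes in each mouse, with the group mean and SD (5 mice per group). Gstm1, Gstm3 and Gstt3 in DSS WT mice lie below all untreated WT mice, while DSS TG and untreated TG mice overlap, and Ces1d is lower in DSS mice of both genotypes.

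Whether the transgene altered the response to DSS was tested as the difference between the DSS effects, transgenic minus wild-type, over the 20 conventional mice. The effect differed for 4 of the 43 genes, all more positive in transgenic mice and all glutathione transferases, 9.3% against 0.156% of all genes and 0.301% of genes with a mean of 7 or more. All 4 averaged 7 or more in every group. The median difference was 0.54 over the 43, -0.02 over all genes and 0.12 over genes with a mean of 7 or more. Gsta3 differed by 1.93 (SE 0.37, 95% interval 1.16 to 2.70, adjusted p = 0.0407), Gstm1 by 1.34 (SE 0.23, 0.86 to 1.82, adjusted p = 0.0228), Gstm3 by 1.28 (SE 0.25, 0.76 to 1.80, adjusted p = 0.0423) and Gstt3 by 1.18 (SE 0.20, 0.76 to 1.61, adjusted p = 0.0228).

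Gsta3 in wild-type mice read 6.60, 6.90, 7.34, 7.86 and 7.91 under DSS, against 7.85, 8.15, 8.28, 8.70 and 9.0 untreated, a change of -1.08 that was not called (SE 0.29, adjusted p = 0.0578). In untreated TG mice it lay below all untreated WT mice (log2 difference -1.12, SE 0.24), though this was not called (adjusted p = 0.342). Gstm1 read 10.39, 10.83, 11.13, 11.20 and 11.23 in DSS TG mice, against 10.89, 11.13, 11.20, 11.38 and 11.40 in untreated TG mice. Those groups overlapped (log2 change -0.24, adjusted p = 0.346), and every untreated TG mouse was below every untreated WT mouse (-0.46, adjusted p = 0.374). Gstm3 read 9.66, 9.96, 10.25, 10.47 and 10.56 in DSS TG and 9.86, 9.88, 9.90, 9.97 and 10.25 in untreated TG mice, against 8.50, 9.10, 9.12, 9.17 and 9.48 in DSS WT and 9.85, 10.01, 10.21, 10.25 and 10.42 in untreated WT mice. Only the DSS WT mice stood apart. Gstt3 read 9.46, 9.63, 9.73, 9.80 and 9.89 in DSS TG and 9.09, 9.34, 9.40, 9.53 and 9.71 in untreated TG mice, against 8.47, 8.73, 8.91, 9.05 and 9.11 in DSS WT and 9.40, 9.63, 9.77, 9.85 and 10.11 in untreated WT mice. Again DSS WT mice were the low group, overlapping none of the DSS TG mice.

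Cyp2f2 had the widest difference between genotypes in its DSS effect, 3.21 (SE 0.70, 95% interval 1.74 to 4.67), and it was not called (adjusted p = 0.0793). Gstm7 (0.92, adjusted p = 0.0696), Gstp3 (1.02, adjusted p = 0.1) and Cyp2c68 (2.50, adjusted p = 0.208) were not called either. The calls depended on single mice: 0 of the 43 were called without untreated WT7, WT8 or WT10, untreated TG28 or TG31, or DSS TG44 or TG48, 1 without DSS TG46 or TG47, and 2 without untreated WT11, untreated TG631 or DSS WT56. With posterior Hox level added as a covariate, 0 were called, and the median size of the 4 differences was 1.24 instead of 1.31. Shares of all genes called are not given here for that fit or the fits without 1 mouse.

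Genotypes compared directly gave no calls among the enzymes. Without DSS 0 of the 43 differed between TG and WT mice, against 0.0753% of all genes (limma; 15 of the 43 and 5% of all genes had an unadjusted p under 0.05). Cyp2c55 read 11.99 to 12.36 in untreated TG and 10.21 to 11.69 in untreated WT mice, without overlap (log2 difference 1.20, SE 0.23, adjusted p = 0.176), and Cyp3a13 had a difference of -1.68 (SE 0.40, adjusted p = 0.404). Under DSS 0 of the 43 differed, against 0.00502% of all genes (limma; 16 of the 43 and 5.17% of all genes had an unadjusted p under 0.05). Cyp2c68 read 7.63 to 8.73 in DSS TG and 5.33 to 6.91 in DSS WT mice (log2 difference 1.91, SE 0.32, adjusted p = 0.142). Gstt3 (0.85, SE 0.14, adjusted p = 0.119), Gstm3 (1.11, SE 0.21, adjusted p = 0.203), Gstt1 and Cyp2s1 also had all DSS TG mice above all DSS WT mice, so 5 of 43 did not overlap, against 1.41% of all genes. Of the 33 genes at 7 or more in every group 4 did not overlap. Cyp2c68, which averaged under 7 in DSS WT mice, was not among those 33. Under DSS the posterior Hox level was likewise higher in every TG mouse (6.53 to 6.68) than in every WT mouse (6.12 to 6.44). With that level as a covariate 0 of the 43 were called, and the differences of these 5 genes were 0.51 for Cyp2c68, 0.42 for Gstt3, 0.99 for Gstm3, 0.31 for Gstt1 and 0.70 for Cyp2s1, while the median SE over the 43 was 0.449 instead of 0.232. Absorptive colonocyte means were higher in every DSS TG mouse as well (11.07 to 11.28 against 10.06 to 10.98, 0 of 11 called and 3 at an unadjusted p under 0.05), and their part was not tested. Leaving out 1 mouse gave 0 called without DSS in every fit, and 0 to 2 with DSS, the 2 without DSS WT55.

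**Figure D4:**
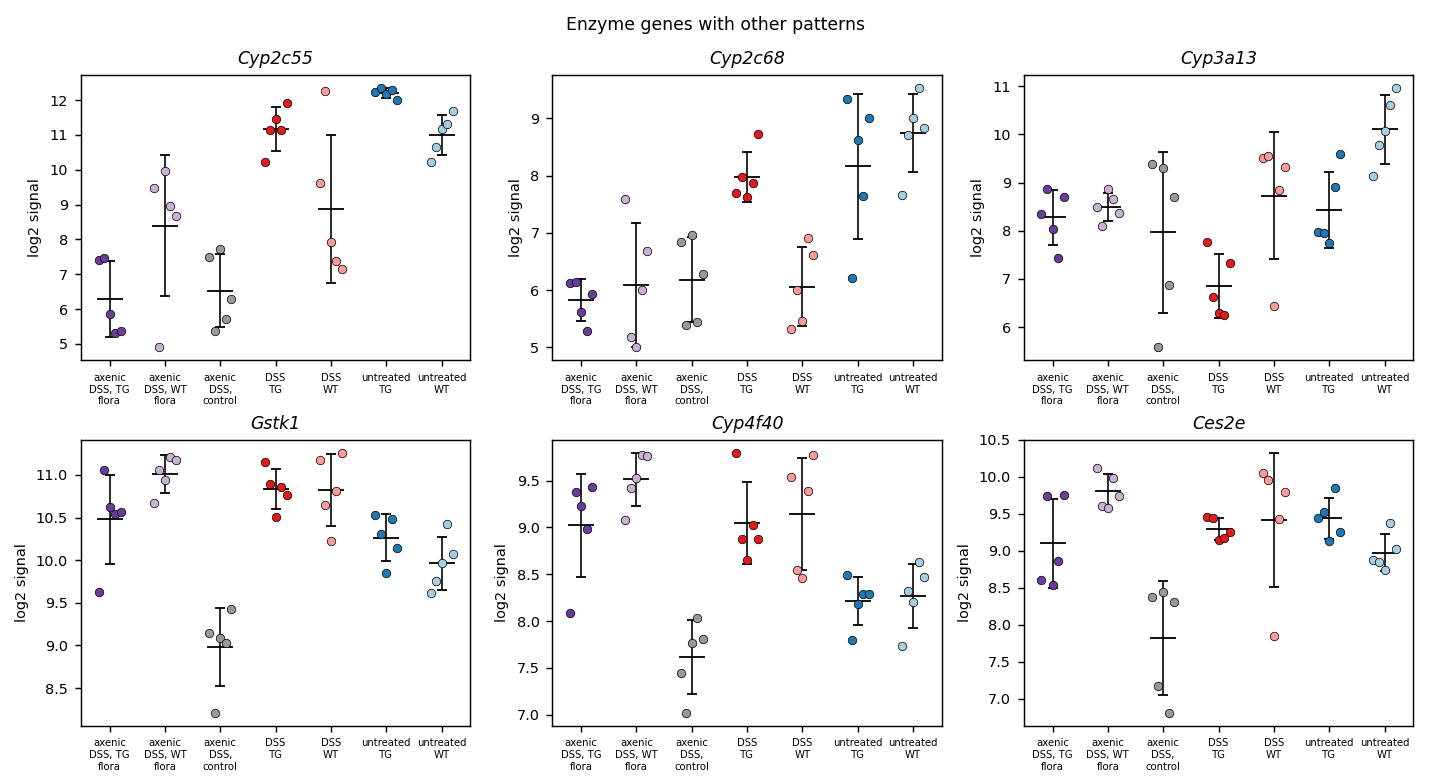
Log2 signal of 6 further enzyme genes in each mouse, with the group mean and SD (5 mice per group). Gstk1 and Cyp4f40 in axenic controls lie below all mice of the axenic flora groups, and Cyp2c55 spans a wide range in DSS WT mice.

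In axenic mice given DSS, Gstk1, Cyp4f40 and Ces2e separated recipients of either flora from controls without overlap, as 3 of the 43 did with TG flora (1.7% of all genes higher) and 10 with WT flora (20.1%). The WT flora count was thus near the share of all genes. That share was not counted for genes with a mean of 7 or more, of which 60.9% were called higher with WT flora, against 32.1% of all genes. Gstk1 read 9.63, 10.54, 10.56, 10.62 and 11.06 with TG flora and 10.67, 10.94, 11.06, 11.18 and 11.21 with WT flora, against 8.21, 9.03, 9.09, 9.15 and 9.43 in controls. Every recipient of either flora was above every control: the log2 change was 1.50 for TG flora (SE 0.27, adjusted p = 0.0483) and 2.03 for WT flora (SE 0.20, adjusted p = 0.000114). Cyp4f40, of the subfamily that hydroxylates long fatty acids, read 8.09, 8.98, 9.23, 9.38 and 9.43 with TG flora and 9.08, 9.42, 9.53, 9.76 and 9.77 with WT flora, against 7.02, 7.44, 7.77, 7.81 and 8.03 in controls. Again no recipient overlapped a control, with 1.41 for TG flora (SE 0.26, adjusted p = 0.0556, not called) and 1.90 for WT flora (SE 0.19, adjusted p = 0.00013). Ces2e, an intestinal carboxylesterase, read 8.54 to 9.75 with TG flora and 9.58 to 10.12 with WT flora, against 6.81 to 8.45 in controls (1.28, adjusted p = 0.145, and 1.98, adjusted p = 0.00063).

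Counts over the 43 must be read against a broad shift in the WT flora comparison. There 18 rose and 3 fell, 48.8% of the 43, which is below the 67.3% of all genes (32.1% higher and 35.2% lower) and the 70.2% of genes with a mean of 7 or more (60.9% higher and 9.29% lower). The median log2 change was 0.54 over the 43 and 0.46 over genes with a mean of 7 or more. At any level 63 of 114 family genes were called. The within-array spread differed (1.96 with WT flora, 1.73 in controls), and with that spread as a covariate, a setting chosen after seeing the data, 0 of the 43 were called. Epithelial level moved too (11.68 to 12.04 against 11.05 to 11.63, 7 of 10 markers higher), as did pancreas markers (6 of 6 measured were higher), whose part was not tested. Absorptive (5 of 11), goblet (4 of 7), fibroblast (4 of 8), macrophage (5 of 8) and neutrophil markers (4 of 8) were higher too, and 4 of 8 adipocyte markers, 3 of 7 liver markers and 4 of 9 posterior Hox genes lower, with 1 liver marker and 1 Hox gene higher. These marker counts must likewise be read against the 32.1% of all genes called higher and 35.2% lower. Of genes with a mean of 7 or more, 60.9% were called higher. With the epithelial level as a covariate 13 of the 43 were called, 5 higher and 8 lower. In that fit the 21 changes had a median size of 0.41 instead of 0.80, and 4 of them reversed: Gsto1 to -0.35, Gstm3 to -0.26, Cyp4f14 to -0.19 and Gstm2 to -0.17. By family 12 of 15 Gst, 4 of 17 Cyp and 2 of 6 Ces genes rose, among them Cyp2j6, a fatty acid epoxygenase (1.19, SE 0.15, adjusted p = 0.00028), and Gstm5 (1.03, adjusted p = 0.000751). The falls were Cyp2d40 (-0.94, adjusted p = 0.00115), Ces1b (-0.58) and the pseudogene Cyp2d37-ps (-0.57). With the spread covariate the median size of the 21 changes was 0.16 and the median SE over the 43 was 0.579 instead of 0.235. There 6 of the 21 reversed: Cyp2d40 to 0.10, Gsto1 to -0.31, Gstp1 to -0.22, Ces1f to -0.05, and Gstm2 and Gstm4 to -0.04 each. How many of all genes were called in the covariate fits is not given here.

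For TG flora against the same controls 1 of the 43 rose, Gstk1, against 0.337% of all genes. That call held in 1 of 10 fits that left out 1 mouse, the one without AXDSSTG922, where 8 were called, and 0 were called in the other 9 fits. Among tissue markers 1 of 8 neutrophil and 1 of 7 goblet markers were higher with TG flora. At an unadjusted p under 0.05 were 8 of 8 neutrophil, 7 of 8 macrophage and 7 of 9 smooth muscle markers, and smooth muscle means read 9.53 to 10.47 with TG flora and 10.18 to 11.05 in controls. What share of all genes reached that unadjusted level against controls is not given here. Both flora comparisons share the 5 controls. Between the floras 0 of the 43 differed, against 0% of all genes (limma; 21 of the 43 and 34.4% of all genes had an unadjusted p under 0.05). The smallest adjusted p among them was 0.0695, for Gstm4 (7.0 to 7.68 with TG flora, 7.71 to 8.22 with WT flora, log2 difference -0.65, SE 0.14) and Cyp4f16. Smooth muscle means read 9.53 to 10.47 with TG flora and 10.46 to 11.19 with WT flora, and pan-epithelial means 11.39 to 11.76 and 11.68 to 12.04. Of these markers 0 were called between floras, and 9 of 9 and 7 of 10 had an unadjusted p under 0.05. With the pan-epithelial level as a covariate 1 was called for TG flora against controls and 0 between floras, and the part of the other markers in the enzyme values was not tested. Between floras the count was 14 without AXDSSTG749 and 1 without AXDSSWT793. Shares of all genes called are not given here for these fits or for the one without AXDSSTG922. Their counts can therefore not be read as particular to the enzymes.

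Axenic controls were also set against conventional DSS WT mice. These groups differ in being labelled axenic or conventional and in the number of mice with a high Xist signal, so these cannot be told apart. Housing is not given, nor whether the controls carried flora when sampled. Tissue markers moved as well: posterior Hox means were 6.5 to 6.79 in axenic controls and 6.12 to 6.44 in DSS WT mice (1 of 9 higher), and goblet means 11.04 to 12.18 and 12.31 to 12.90 (3 of 7 lower), both without overlap. Of 11 absorptive markers 1 was lower. Of the 43, 2 were lower in axenic controls, against 0.638% of all genes. Gstk1 read 8.21 to 9.43 in axenic controls and 10.22 to 11.26 in DSS WT mice (log2 difference -1.85, SE 0.25, adjusted p = 0.00814), and its call held in 10 of 10 fits that left out 1 mouse. Cyp4f40 read 7.02 to 8.03 and 8.46 to 9.77 (log2 difference -1.52, SE 0.28, adjusted p = 0.0448), and its call held in 2 of 10, those without DSS WT55 or WT56. Ces2e differed by -1.60 (adjusted p = 0.0982). With the Xist or the posterior Hox level as a covariate 0 were called, and with the pan-epithelial level 1. The count was 10 without DSS WT55 and 1 without DSS WT52, WT53 or WT65 or axenic control AXDSSCT093, AXDSSCT229, AXDSSCT465 or AXDSSCT677. How many of all genes were called in these fits is not given here, so the counts cannot be read as particular to the enzymes.

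Cyp2e1, which oxidises ethanol and small solvents and is abundant in liver and fat, was scattered within groups. It read 6.88, 9.20, 9.24, 9.61 and 10.54 in axenic controls, against 6.38 to 8.16 in DSS WT mice (log2 difference 1.84, SE 0.57, adjusted p = 0.106). The control at 10.54 also had the highest adipocyte list mean of all mice, 8.22, where axenic controls had 7.10 to 8.22 and DSS WT mice 6.91 to 7.63 (0 of 8 markers called, 4 at an unadjusted p under 0.05). The same mouse had the highest liver list mean, 8.52, where axenic controls had 6.76 to 8.52 and DSS WT mice 6.60 to 7.21 (0 of 7 called, 5 at an unadjusted p under 0.05). In untreated WT mice the highest Cyp2e1 value, 9.76, was that of WT11, with an adipocyte mean of 7.59 and a liver mean of 6.81. The part of fat or liver RNA in these values was not tested.

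Enzymes and regulators outside the 5 families were followed by lists. Of 25 other oxidising and reducing enzymes and electron donors, 8 fell and 0 rose in DSS WT mice, against 2.13% of all genes lower, including the flavin monooxygenase Fmo2 (-2.44, adjusted p = 0.000357), the amine oxidase Maob (-2.12, adjusted p = 0.00118) and the acetaldehyde dehydrogenase Aldh2 (-1.31, adjusted p = 0.0146). In transgenic mice 3 of the 25 rose and 1 fell, with the carbonyl reductase Cbr2 (1.71, adjusted p = 0.00456) and the quinone reductase Nqo1 (1.05, adjusted p = 0.0134) higher. Cbr2 also differed between genotypes in its DSS effect (1.84, SE 0.30, adjusted p = 0.0228). Of 13 glutathione and Nrf2 target genes, Gpx2, Txnrd1 and Srxn1 rose in DSS WT mice (0.95, 0.77 and 0.84), and Gpx2, Txnrd1 and Pgd in DSS TG mice (1.04, 0.74 and 0.60). Gpx2 is a glutathione peroxidase of the gut epithelium. Of 14 transporters the drug efflux pump Abcb1a alone was called, at -2.04 in wild-type (adjusted p = 0.0121) and -0.93 in transgenic mice (adjusted p = 0.0129). Of 15 other conjugating enzymes 2 fell in wild-type mice, Inmt (-1.67) and Hpgds (-0.52), and Inmt fell in transgenic mice (-0.83).

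Among 21 regulators measured, 5 fell and 2 rose under DSS in wild-type mice and 0 were called in transgenic mice (5 at an unadjusted p under 0.05). The falls were the clock-controlled factors Dbp (-2.04, adjusted p = 0.00166), Tef (-1.04, adjusted p = 0.0005) and Hlf (-0.59), which drive many detoxification genes in mouse liver, the vitamin D receptor Vdr (-1.74, adjusted p = 0.00566) and the nuclear receptor Nr1i3 (-0.65). The rises were Cdx2 (1.10) and Cebpb (0.67). Dbp, Tef and Vdr differed between genotypes in their DSS effect, by 2.20, 0.96 and 1.51 (adjusted p = 0.0228, 0.0228 and 0.0485). Without DSS, Dbp (-1.84, adjusted p = 0.0469) and Tef (-0.92, adjusted p = 0.0339) were lower in TG than in WT mice. The sources used here do not give the hour of collection. The receptors and factors Ahr, Nr1i2, Nfe2l2 and Hnf4a were not called in either genotype (log2 changes of -0.13, -0.52, 0.04 and -0.62 in wild-type mice), and of 7 AHR target genes 1 rose in transgenic mice, Nqo1 (named above), and 0 were called in wild-type mice (0 at an unadjusted p under 0.05). AHR target means were low, 5.92 to 6.19 in DSS WT and 5.96 to 6.17 in untreated WT mice. Cyp1a1 and Cyp1b1 averaged 5.687 and 5.829 over all arrays, and at such low signal a lack of calls says little.

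**Figure D5:**
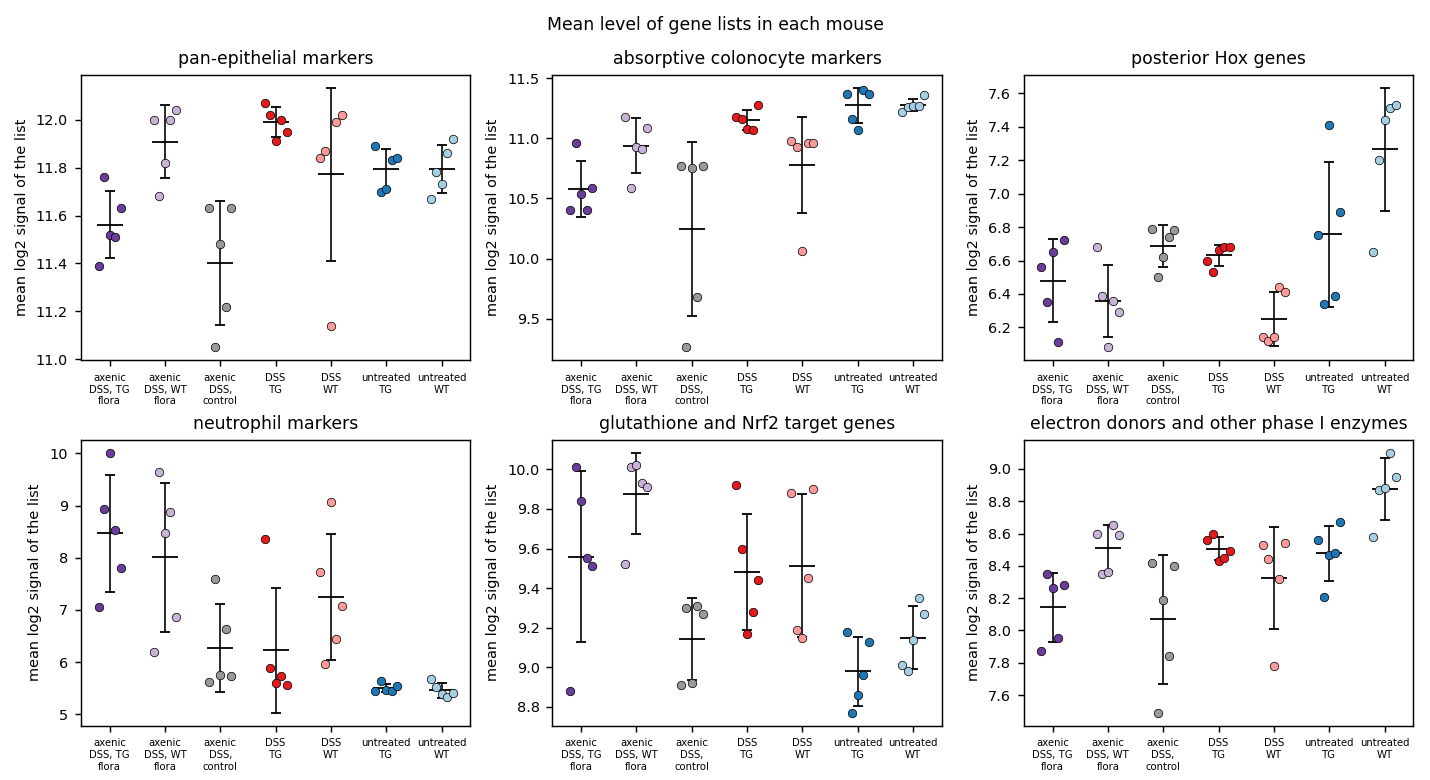
Mean log2 signal of 6 gene lists in each mouse, with the group mean and SD (5 mice per group). The posterior Hox level of DSS WT mice (6.12 to 6.44) lies below that of untreated WT mice (6.65 to 7.53), and neutrophil markers are spread widest in mice given DSS.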

How the data were processed

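Colon RNA (200 ng a mouse, 35 mice) went onto Affymetrix Mouse Gene 1.0 ST arrays. The deposited values are log2 signal, which the authors made with RMA in Affymetrix Expression Console 1.1, per the submitters' processing notes; the sources used here do not give further upstream steps. Values ranged from 3.78 to 14.4. Of 28090 probe sets 21639 had 1 symbol, 1539 several and 4912 were not listed, and a gene with several probe sets (990) was represented by the brightest, which left 19908 genes. All 43 enzyme genes matched a RefSeq entry (GRCm38.p6) by Entrez ID. All 35 value columns were used.

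Groups followed the titles. Linear models (limma 3.58.1, R 4.3.3) were fitted for each comparison on its own arrays, with two-sided tests and Benjamini-Hochberg adjustment over all genes, and a gene was called at an adjusted p under 0.05. SE is the moderated standard error. The difference between DSS effects was an interaction over the conventional groups. Each mouse counts as 1 replicate, and 5 per group limit the precision. Scripts used Python 3.11.15, numpy 2.4.6, pandas 2.3.3 and matplotlib 3.10.9, and the fits were tested on simulated data.

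The enzyme genes, the lists and the tests were chosen with earlier results of these data known. Every enzyme gene could be named. Values of each mouse were given for Cyp2f2, Gsta3, Gstm1 and Ces1d, for genes called in the interaction, and per family and comparison for up to 3 called genes in each direction with the largest change, or up to 2 with the smallest p where none was called. Well-known genes of the families were always eligible, and from other lists up to 3 genes per comparison; further list genes named were chosen after their values were seen.

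Alternatives were quantile normalization, array weights, trend and robust variance, a single model over all 35 arrays, the mean of probe sets, removal of genes averaging under 7, family genes at any level, a minimum of 8, covariates of posterior Hox, pan-epithelial or Xist level, and leaving out each mouse. A covariate of within-array spread and leaving out the 7 arrays of lowest spread were chosen after seeing the data.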

Additional observations from a re-analysis of the deposited data

Results flagged for a closer look

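In 189 sets of 5 values (27 enzyme genes in 7 groups), 11 had 1 mouse set apart from the other 4 by a gap of more than 0.71 of the group's range. Chance gives about 1 in 20. Ces1d read 6.61 in DSS TG46, where the other DSS TG mice read 7.05 to 7.12. Ces1f read 6.85 in untreated WT10 (others 7.41 to 7.63). Ces2a stood high at 9.28 in DSS WT56 (others 7.36 to 7.84) and at 7.88 in axenic mouse AXDSSTG922 (others 7.12 to 7.28). DSS WT55 was the low mouse for Ces2e at 7.85 (others 9.43 to 10.05), for Cyp2s1 at 6.90 (others 8.23 to 8.48) and for Cyp3a13 at 6.44 (others 8.84 to 9.54). Cyp2c55 read 4.90 in axenic mouse AXDSSWT793 (others 8.68 to 9.97). Untreated WT9 was low for Cyp2f2 at 9.70 (others 10.35 to 10.51) and high for Gstp1 at 11.35 (others 10.66 to 10.80). Gstm3 read 10.25 in untreated TG631 (others 9.86 to 9.97).

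The DSS effect differed between genotypes, transgenic minus wild-type in an interaction test in limma, by 1.93 for Gsta3, 1.34 for Gstm1, 1.28 for Gstm3 and 1.18 for Gstt3 (log2, adjusted p = 0.0407, 0.0228, 0.0423 and 0.0228).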

How the results depend on the processing

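Counts of called enzyme genes (of 43 unless stated) moved as follows. For these fits, including those without 1 mouse, the share of all genes called is not given here. A moved count can therefore not be read as particular to the enzymes. Array weights gave 32 for DSS in wild-type and 21 in transgenic mice, 1 for genotype untreated, 9 for genotype under DSS, 14 between floras, 10 for TG flora, 12 for axenic control against DSS WT and 9 for the interaction. All 35 arrays in 1 model gave 7 for DSS in transgenic mice, 2 for genotype under DSS, 4 between floras, 3 for TG flora and 10 for axenic control against DSS WT. Quantile normalization gave 11 for WT flora, 2 for TG flora and 2 for the interaction. Trend and robust variance, and removing genes under 7, each gave 2 for TG flora. A minimum of 8 gave 9 for DSS in wild-type and 7 in transgenic mice and 12 for WT flora, and genes at any level gave 63 of 114 for WT flora. The posterior Hox covariate gave 0 for DSS in wild-type mice, the interaction, TG flora and axenic control against DSS WT. The pan-epithelial covariate gave 23 and 0 for DSS in wild-type and transgenic mice, 2 and 1 for genotype untreated and under DSS, 2 for the interaction, 13 for WT flora and 1 for axenic control against DSS WT. The Xist covariate gave 1 for genotype under DSS and 0 for axenic control against DSS WT. The spread covariate gave 26 and 6 for DSS in wild-type and transgenic mice, 1 and 1 for genotype untreated and under DSS, 0 for WT flora and 1 for axenic control against DSS WT. Without the 7 arrays of lowest spread it was 8 for DSS in transgenic mice, 2 for genotype under DSS, 2 for TG flora, 2 for the interaction and 1 for axenic control against DSS WT. The mean of probe sets moved 0 of the 9 counts.

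Leaving out 1 mouse gave 12 to 19 for DSS in wild-type and 4 to 11 in transgenic mice, 0 to 0 and 0 to 2 for genotype untreated and under DSS, 0 to 14 between floras, 17 to 23 for WT flora, 0 to 8 for TG flora, 0 to 6 for the interaction and 1 to 10 for axenic control against DSS WT.

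For WT flora against control, 4 of the 21 called genes reversed with the pan-epithelial covariate, Gsto1 (-0.35), Gstm3 (-0.26), Cyp4f14 (-0.19) and Gstm2 (-0.17), and the median size of the 21 was 0.41 instead of 0.80. With the spread covariate 6 of the 21 reversed, among them Ces1f (-0.051) and Cyp2d40 (0.10), and the median size was 0.16. Over 42 named gene changes, 339 of 460 fits without 1 mouse kept the call, 121 lost it and 0 reversed. The cause of each shift was not tested. No paired analysis was possible because the groups share no mouse numbers.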
